A study of Mus musculus with 30 samples.

Results

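The hypoxia-inducible factor (HIF) genes described here are Epas1, Hif1a, Arnt, Egln1, Egln3 and Vhl, 6 of the 20300 genes in the exonic count table of a study of Esrrb in mouse embryonic stem (ES) cells. They were taken by gene symbol: Epas1 was chosen by its exonic counts, which were higher after Esrrb was withdrawn, and the other 5 were added as genes of the same pathway with those results known. Their values after withdrawal are therefore given as a description, without a test. Esrrb is an orphan nuclear receptor of the pluripotency network. The ES cells (strain 129/Ola) were grown in serum with LIF.

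The RNA-seq came from EKOiE-Ccna-Gfp, an Esrrb knockout ES line with a doxycycline (DOX)-inducible Esrrb transgene and a Ccna2-Gfp reporter that allows sorting by cell-cycle phase. Its 6 groups were early G1, late G1 and G2 cells, each 24 h after DOX withdrawal ("withdrawn") and each kept in DOX, with 3 libraries per group. All of these cells, those in DOX included, carry the Esrrb knockout. Esrrb ChIP-seq came from mitotic cells collected by shake-off and from asynchronous cells, called interphase here. Each state had 2 EKOiE libraries after 48 h of withdrawal and 4 libraries in DOX, of which replicate 2 came from the wild-type line E14Tg2a. The labels do not say whether libraries came from separate cultures, so p-values measure only the spread between these libraries, which may be technical.

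HIF transcription factors are pairs of an oxygen-regulated alpha subunit and a stable beta subunit. Prolyl hydroxylases use oxygen to mark the alpha subunit, the Vhl protein binds the marked subunit, and the proteasome destroys it. When oxygen is scarce the alpha subunit persists, joins Arnt and binds a short DNA core to switch on genes of glycolysis, angiogenesis and iron handling. Much of this control acts on the protein, which RNA counts do not show. Epas1 encodes the alpha subunit HIF-2alpha and Hif1a the alpha subunit HIF-1alpha. Arnt encodes their beta partner, Egln1 and Egln3 encode the prolyl hydroxylases PHD2 and PHD3, and Vhl encodes the recognition subunit of the ubiquitin ligase. Egln3 is itself a well-known HIF target gene.

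As the files place them in mm9, Epas1 (NM_010137) lies on chromosome 17 at 87153204 to 87232750 on the plus strand and Hif1a (NM_010431) on chromosome 12 at 75008854 to 75048517, also plus. Arnt (NM_009709) lies on chromosome 3 at 95238312 to 95301161 on the plus strand. Egln1 (NM_053207) lies on chromosome 8 at 127432487 to 127473154 and Egln3 (NM_028133) on chromosome 12 at 55279968 to 55304861, both on the minus strand. Vhl (NM_009507) lies on chromosome 6 at 113574015 to 113581627 on the plus strand.

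Promoter sequences in RefSeq's table (assembly GRCm38.p6) matched 5 of the 6 genes; Epas1 was not matched. The 250 bases before each start were searched on both strands for the core of the HIF binding site, ACGTG or GCGTG, and for the half-site AAGGTCA and extended site TCAAGGTCA of the ERR family to which Esrrb belongs. Egln3 is printed because its counts were the highest after Epas1 in their ratio of withdrawn to DOX, and Vhl because its counts lay on the other side. Capitals mark the HIF core. The Egln3 window is chr12:54203875-54204124 (minus strand) and the Vhl window chr6:113623744-113623993 (plus strand).
Egln3: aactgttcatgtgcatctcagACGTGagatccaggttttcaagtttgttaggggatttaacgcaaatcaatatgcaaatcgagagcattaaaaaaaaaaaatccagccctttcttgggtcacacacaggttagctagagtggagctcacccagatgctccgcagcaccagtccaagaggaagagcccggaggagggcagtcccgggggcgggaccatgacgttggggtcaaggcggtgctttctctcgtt
Vhl: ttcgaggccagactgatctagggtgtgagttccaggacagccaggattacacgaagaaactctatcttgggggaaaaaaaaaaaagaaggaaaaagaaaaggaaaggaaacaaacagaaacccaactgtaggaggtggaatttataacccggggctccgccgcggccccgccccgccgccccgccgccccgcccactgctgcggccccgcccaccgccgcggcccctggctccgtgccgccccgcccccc
Egln3 held 1 ACGTG, which begins 229 bases before the start, and Vhl held neither form. Hif1a held ACGTG 3 times, at 135, 134 and 70 bases before the start, the first pair being both strands of 1 palindrome, CACGTG. Egln1 held 1 ACGTG and 1 GCGTG, and Arnt 1 GCGTG. Either form occurs in 38.6% of 32851 promoters of this length, so a match is common. Neither ERR sequence was found in the 5 windows; AAGGTCA occurs in 4.08% of all promoters and TCAAGGTCA in 0.387%.

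Libraries held 11.1 to 31.8 M (mega) exonic counts and 6.1 to 20.8 M intronic ones; G2 withdrawn replicate 1 was the deepest. Exonic Esrrb averaged 162 ± 27.2 CPM (counts per M, scaled by TMM) in withdrawn and 242 ± 37.8 in DOX cells of early G1, 165 ± 7.21 and 317 ± 28.3 in late G1, and 190 ± 6.67 and 273 ± 27.0 in G2 (SD, n = 3 each). Esrrb RNA was thus still present after withdrawal, and transgene and locus reads cannot be separated. The 8 ES-cell markers, Pou5f1, Sox2 and Nanog among them, summed to 2506 to 3914 CPM. The 8 markers of endothelial cells, a cell type known for Epas1, summed to 13.1 to 22.6 CPM, with Emcn at 0 in all libraries. The sums were 9.33 to 17.1 CPM for 8 fibroblast markers and 7.34 to 24.3 CPM for 8 primitive endoderm markers. All 6 HIF genes passed the filter on low counts in both tables.

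Epas1 had more exonic counts in withdrawn than in DOX cells in every phase. In early G1 its level was 41.2, 29.4 and 25.9 CPM in withdrawn replicates 1, 2 and 3, against 12.7, 13.9 and 13.6 CPM in DOX. In late G1 it was 46.6, 33.9 and 25.9 CPM in withdrawn replicates, against 9.4, 13.4 and 13.4 CPM in DOX. In G2 it was 32.4, 24.4 and 24.6 CPM in withdrawn replicates, against 11.0, 11.3 and 14.2 CPM in DOX. The lowest withdrawn library, at 24.4 CPM, lay above the highest DOX library of any phase, at 14.2 CPM, and replicate 1 was the highest withdrawn library in each phase. These levels rest on 425 to 1017 counts per withdrawn library and 124 to 271 per DOX library. The edgeR log2 changes (± SE) were 1.26 ± 0.22 for early G1, 1.55 ± 0.22 for late G1 and 1.16 ± 0.22 for G2, or 2.40-fold, 2.94-fold and 2.23-fold.

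**Figure D1:**
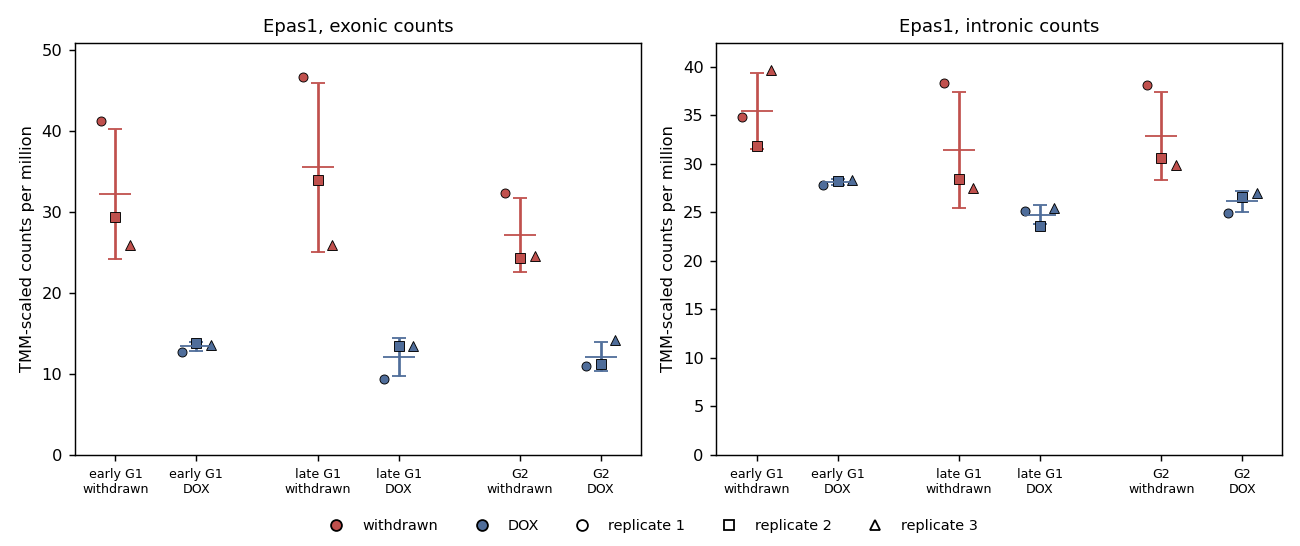
Epas1 level in TMM-scaled CPM over exons (left) and introns (right) in each of the 18 RNA-seq libraries, withdrawn in red and DOX in blue within each phase. Symbols mark replicate numbers, long dashes the group means and whiskers the SD (n = 3); in both panels the withdrawn libraries of a phase lie above its DOX libraries, by more in exons.

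The same contrast over introns, which can hold reads of unspliced RNA, gave a smaller difference of the same sign. In early G1 Epas1 had 34.8, 31.9 and 39.7 intronic CPM in withdrawn replicates, against 27.8, 28.2 and 28.4 in DOX. In late G1 it had 38.3, 28.5 and 27.6 in withdrawn replicates, against 25.1, 23.7 and 25.5 in DOX, and in G2 38.1, 30.6 and 29.9 against 24.9, 26.6 and 27.0. Withdrawn and DOX libraries did not overlap within any phase. The edgeR log2 changes (± SE) were 0.34 ± 0.14 for early G1, 0.34 ± 0.14 for late G1 and 0.33 ± 0.14 for G2. In late G1 and G2 replicate 1 carried much of it: without withdrawn replicate 1 the log2 change was 0.18 in late G1 and 0.21 in G2. The deepest library, G2 withdrawn replicate 1, is 1 of these.

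Groups that do not overlap in the higher direction are common among all genes: 6.78%, 8.14% and 8.96% of the 14092 genes tested over exons in early G1, late G1 and G2, and 5.48%, 5.27% and 5.29% of the 14075 tested over introns. Genes past an adjusted p of 0.05 in the higher direction are rarer, at 0.0426%, 0.185% and 0.341% over exons and 0% in all 3 phases over introns (edgeR). Epas1 was 1 of the 6, 26 and 48 such genes over exons, and the other 5 HIF genes were in none of them; since this contrast chose Epas1, nothing is read from that count. Replicate number as a block in the fit raised these shares to 1.83%, 4.80% and 5.77% higher and 2.20%, 4.24% and 5.44% lower over exons, and to 0.263%, 0.277% and 0.945% higher and 0.213%, 0.355% and 0.675% lower over introns. In that fit Epas1 exons changed by 1.24 ± 0.20, 1.53 ± 0.20 and 1.14 ± 0.20 log2. Its introns changed by 0.34 ± 0.12, 0.34 ± 0.12 and 0.33 ± 0.12. Blocked values of the HIF genes are a description, without a test. Endothelial marker sums overlapped between withdrawn and DOX cells in each phase. They were 16.7 to 19.6 CPM in withdrawn and 16.6 to 22.1 in DOX cells of early G1, 13.1 to 20.5 and 15.5 to 19.6 in late G1, and 13.4 to 16.5 and 13.9 to 22.6 in G2. In these sorted pools a change in the number of cells with Epas1 RNA and a change in RNA per cell cannot be told apart.

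Hif1a, the other alpha subunit among the 6, had log2 changes below 0 over exons in each phase. In early G1 it had 169.0, 189.7 and 144.0 exonic CPM in withdrawn replicates, against 190.8, 214.4 and 190.6 in DOX, which did not overlap. The share of all genes with non-overlapping lower groups in early G1 was 7.66%. In late G1 its means were 169.6 in withdrawn and 190.1 in DOX cells, and in G2 174.2 and 202.9, with overlapping libraries in both. The log2 change was -0.25 ± 0.14, -0.16 ± 0.14 and -0.22 ± 0.14 in early G1, late G1 and G2. Over introns it was -0.15 ± 0.15, 0.03 ± 0.15 and -0.14 ± 0.15, all with overlap. The alpha subunits thus had changes of opposite sign over exons.

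Arnt, the beta partner, overlapped between withdrawn and DOX libraries in every phase. Its exonic means were 63.0 ± 5.20 CPM in withdrawn and 53.8 ± 14.95 in DOX cells of early G1, 64.4 ± 6.97 and 56.3 ± 12.3 in late G1, and 67.2 ± 7.64 and 56.5 ± 10.4 in G2 (SD, n = 3 each). Replicate 1 was the lowest DOX library each time, at 36.7, 42.4 and 44.9 CPM. The log2 changes of 0.23 ± 0.20, 0.20 ± 0.20 and 0.25 ± 0.20 were about the size of their SE, and the intronic changes of 0.19 ± 0.21, 0.19 ± 0.21 and -0.18 ± 0.21 differed in sign.

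**Figure D2:**
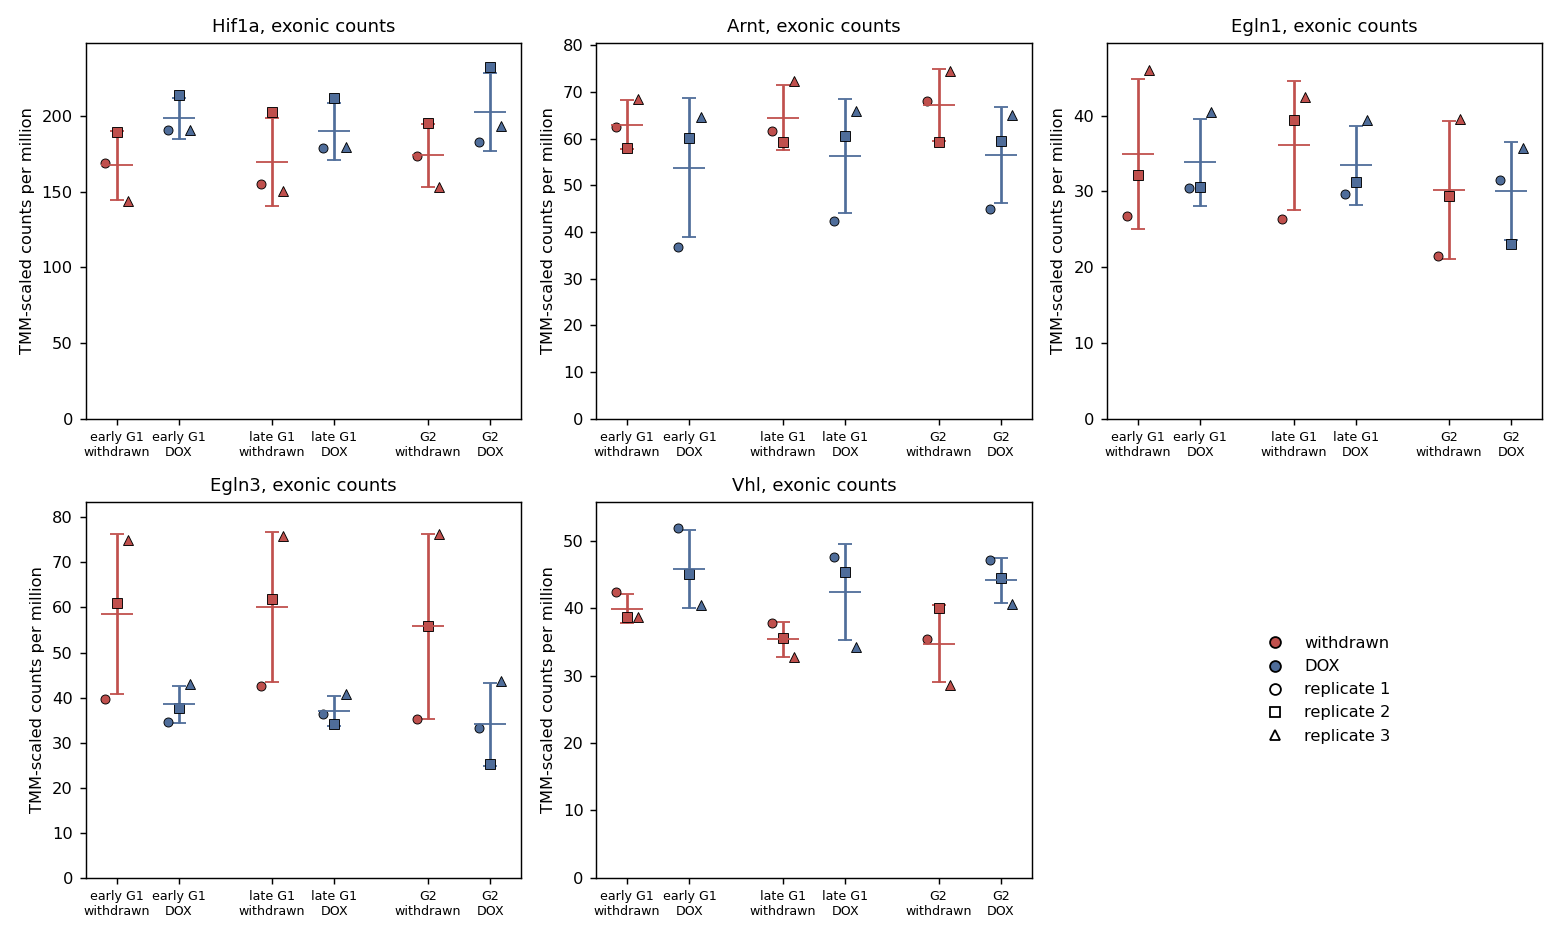
Exonic level of Hif1a, Arnt, Egln1, Egln3 and Vhl in TMM-scaled CPM in each RNA-seq library, withdrawn in red and DOX in blue within each phase, with replicate numbers as symbols, group means as long dashes and the SD as whiskers (n = 3). Withdrawn Egln3 libraries spread from 35.2 to 76.3, with replicate 1 lowest and replicate 3 highest in each phase.

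The prolyl hydroxylases differed from each other. Egln3 had 39.8, 61.1 and 74.9 exonic CPM in withdrawn replicates of early G1, against 34.7, 37.8 and 43.0 in DOX, with 1 overlapping pair of libraries. In late G1 it had 42.6, 61.9 and 75.9 in withdrawn replicates, against 36.2, 34.0 and 40.7 in DOX, without overlap. In G2 it had 35.2, 55.9 and 76.3 in withdrawn replicates, against 33.3, 25.2 and 43.6 in DOX, with overlap. The log2 change was 0.61 ± 0.27, 0.70 ± 0.28 and 0.71 ± 0.28 in early G1, late G1 and G2. Replicates 1 and 3 moved these values: they were 0.82, 0.90 and 0.96 without withdrawn replicate 1, and 0.40, 0.50 and 0.41 without withdrawn replicate 3. Over introns, at lower counts, Egln3 changed by 0.35 ± 0.21, 0.77 ± 0.21 and 0.36 ± 0.21, with no overlap in late G1 and G2. Egln3 was higher in the withdrawn library of all 9 pairs with the same phase and replicate number, over exons and over introns. The share of all genes with 9 such pairs was not counted. Pairs with the same number are not independent, so nothing is read from this count. With replicate number as a block the exonic changes of Egln3 were 0.58 ± 0.17, 0.66 ± 0.17 and 0.66 ± 0.17. Its intronic changes were then 0.34 ± 0.17, 0.78 ± 0.18 and 0.37 ± 0.17.

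Egln1 had nearly equal means and overlapping libraries in each phase. Its exonic means were 35.0 ± 9.92 CPM in withdrawn and 33.8 ± 5.77 in DOX cells of early G1, 36.1 ± 8.54 and 33.4 ± 5.25 in late G1, and 30.1 ± 9.09 and 30.03 ± 6.44 in G2 (SD, n = 3 each). The log2 changes were 0.05 ± 0.25, 0.11 ± 0.25 and -0.0039 ± 0.25, and leaving out single libraries moved them to either side of 0. Over introns they were 0.05 ± 0.26, 0.23 ± 0.26 and 0.21 ± 0.26.

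Vhl lay lower in withdrawn cells on average. In early G1 it had 42.4, 38.7 and 38.8 exonic CPM in withdrawn replicates, against 52.0, 45.1 and 40.5 in DOX, and in late G1 37.9, 35.6 and 32.7 against 47.6, 45.4 and 34.3. In G2 it had 35.5, 40.1 and 28.7 in withdrawn replicates, against 47.3, 44.5 and 40.7 in DOX. Only the G2 libraries did not overlap, where 10.0% of all genes had non-overlapping lower groups. The log2 change was -0.20 ± 0.14, -0.26 ± 0.15 and -0.34 ± 0.14 over exons and -0.26 ± 0.20, -0.23 ± 0.21 and -0.25 ± 0.20 over introns. Vhl exons were lower in the withdrawn library of all 9 same-numbered pairs, but Vhl introns were lower in 6 and higher in 3. With the block the exonic changes of Vhl were -0.19 ± 0.10, -0.25 ± 0.10 and -0.35 ± 0.10. Hif1a exons were also lower in all 9 pairs, with blocked changes of -0.25, -0.17 and -0.22 (SE 0.08 each). Hif1a introns were lower in 6 pairs and higher in 3. As for Egln3, the share of all genes was not counted, and nothing is read from these counts of pairs.

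**Figure D3:**
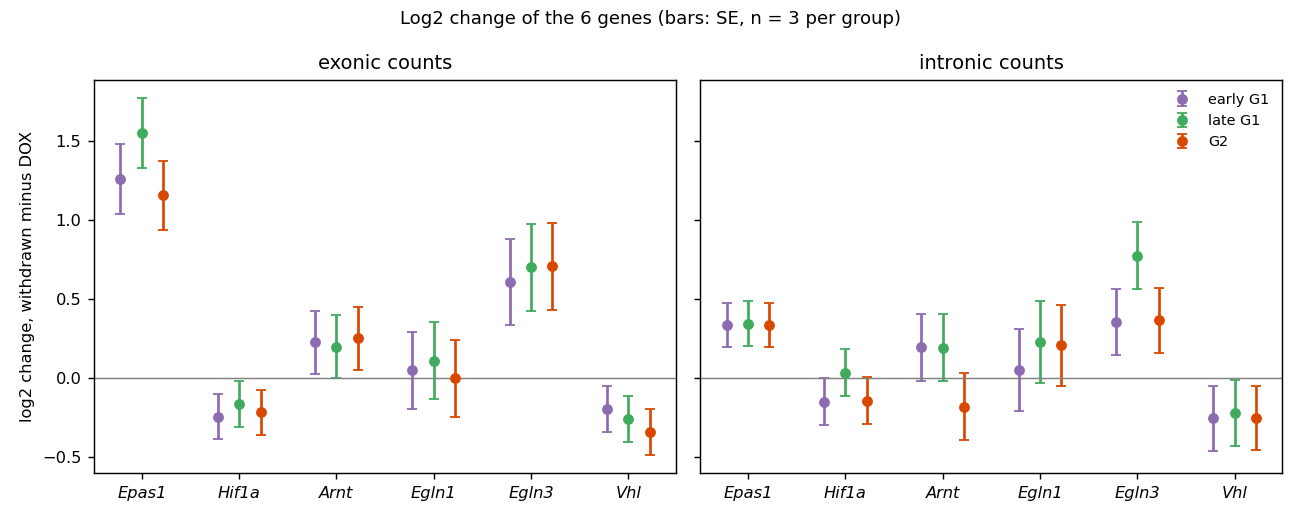
Log2 change, withdrawn minus DOX, of the 6 genes over exons (left) and introns (right) in early G1, late G1 and G2; points are edgeR estimates and bars 1 SE (n = 3 per group). Epas1 stands at 1.16 to 1.55 over exons and at 0.33 to 0.34 over introns, Egln3 above 0 throughout, and Vhl below 0 throughout.

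Cell-cycle phase was not used to choose the genes and was tested. Without the replicate block none of the 6 was called between phases, over exons or introns, with or without DOX (edgeR adjusted p above 0.05). At an unadjusted edgeR p under 0.05 there were also 0, and 0 with DESeq2. In these contrasts 0% of all genes passed, so nothing particular to the 6 is read from this. With the block all 6 stayed above an adjusted p of 0.05 over exons. The lowest was Vhl in withdrawn cells, G2 minus early G1, at -0.21 ± 0.10 log2 (blocked edgeR adjusted p = 0.390). Without the block the nearest was Epas1 over exons in withdrawn cells, G2 minus late G1, at -0.38 ± 0.21 log2 (edgeR unadjusted p = 0.0868). Ordered by exonic mean, Epas1 stood at 35.5 CPM in late G1, 32.2 in early G1 and 27.1 in G2 of withdrawn cells, then at 13.4 in early G1 and 12.1 in both G2 and late G1 of DOX cells. Neighbours in this order overlapped except across the step from withdrawn to DOX. Over introns of DOX cells, late G1 and G2 Epas1 libraries lay below early G1 without overlap, as did 2.70% and 2.98% of all genes. Vhl exons were lower in late G1 than early G1 of withdrawn cells without overlap, as in 2.85% of genes. No difference in withdrawal response between phases was called for any of the 6 (edgeR adjusted p, without the block). There were 0 at an unadjusted edgeR p under 0.05 and 0 with DESeq2. In these contrasts 0% of all genes passed (edgeR), so nothing particular to the 6 is read from it. For Epas1 over exons, late G1 minus early G1 was 0.29 ± 0.31, G2 minus early G1 -0.10 ± 0.31 and G2 minus late G1 -0.40 ± 0.31 log2.

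The rest of the pathway was read from 3 lists (59 genes in the exonic table, 58 tested). These were 5 other subunits and cofactors, 7 genes of oxygen sensing and degradation, and 47 HIF target genes. The lists were chosen with earlier results of these data known. Calls and p-values of their genes, here and below, are therefore a description. Without replicate number as a block, no gene of these lists passed over exons or introns in any phase (edgeR), against 0.0426%, 0.185% and 0.341% higher and 0.121%, 0.277% and 0.632% lower among all genes over exons. Over introns 0%, 0.0142% and 0.0142% of all genes were lower and 0% higher. At an unadjusted edgeR p under 0.05 there were 7, 11 and 8 of 58 over exons, beside 1357, 1847 and 2034 of all 14092 genes. Over introns there were 5, 4 and 7 of 53, beside 806, 820 and 1084 of all 14075. DESeq2 called 0, 2 and 2 over exons, all higher, beside 0.319%, 1.16% and 1.61% of all genes: Cul2, the scaffold of the Vhl ligase, and Ldha in late G1, and Crebbp and Ldha in G2. Over exons 42, 45 and 41 of the 58 genes had a log2 change above 0, as did 7055, 7061 and 6811 of all 14092. The median was 0.22, 0.24 and 0.21, against 0.00, 0.00 and -0.01 for all genes. Over introns the median was 0.06, 0.03 and 0.00 for 53 genes.

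With replicate number as a block, 7, 8 and 11 genes of these lists were higher and 0, 0 and 1 lower over exons (edgeR), beside the blocked shares of all genes given above. Ldha, the histone demethylase Kdm3a, the glycolytic genes Pfkl and Pfkfb3, and Cul2 rose in each phase in that fit. Ldha changed by 0.73, 0.74 and 0.76 (SE 0.11 each; blocked edgeR adjusted p = 0.0018, 0.00092 and 0.00056), and Kdm3a by 0.52, 0.56 and 0.49 (SE 0.09 each; blocked edgeR adjusted p = 0.0033, 0.0012 and 0.0022). Hif3a and Crebbp rose in G2 and Ep300 in late G1, and the lower gene was the adenylate kinase Ak4 in G2. Over introns 1, 2 and 3 were higher and 0, 0 and 2 lower. The labels do not say what a replicate number marks. Same-numbered libraries of different groups did correlate, at a median r of 0.38 over exons and 0.32 over introns. For different numbers it was -0.20 and -0.16. Both fits are therefore given.

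Among the subunits and cofactors all 5 had exonic changes above 0 in each phase. Hif3a, a further alpha subunit that can oppose the others, averaged 6.89 ± 2.02 CPM in withdrawn and 3.83 ± 0.33 in DOX cells of G2 (SD, n = 3 each), with log2 changes of 0.56 ± 0.28, 0.62 ± 0.28 and 0.86 ± 0.28 in early G1, late G1 and G2. The coactivator Crebbp averaged 73.6 ± 22.2 CPM in withdrawn and 45.2 ± 7.66 in DOX cells of G2, with changes of 0.49, 0.53 and 0.70 (SE 0.21 each). Its relative Ep300 changed by 0.46, 0.50 and 0.46 (SE 0.16 each). Arnt2, a second beta subunit, and Cited2, which competes with HIF for these coactivators, had changes of 0.03 to 0.74 and 0.24 to 0.47 with SEs of 0.31 and 0.36. None of the 15 values passed without the block (edgeR adjusted p at least 0.11).

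Of the oxygen-sensing genes, the asparagine hydroxylase Hif1an, which blocks coactivator binding, had changes of 0.21, 0.22 and 0.20 (SE 0.12 each). The remaining prolyl hydroxylase Egln2 had -0.08, -0.23 and -0.12 (SE 0.12 each). Neither passed.

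Target genes were mixed. Ldha, the lactate dehydrogenase subunit of anaerobic glycolysis, averaged 1446 ± 138 CPM in withdrawn and 882 ± 189 in DOX cells of early G1, 1530 ± 107 and 933 ± 236 in late G1, and 1482 ± 156 and 892 ± 232 in G2 (SD, n = 3 each). Its log2 changes were 0.71, 0.71 and 0.73 (SE 0.20 each; edgeR adjusted p = 0.221, 0.126 and 0.0906). The glycolytic regulator Pfkfb3 changed by 0.68, 0.44 and 0.47, and the phosphofructokinase Pfkl by 0.36, 0.39 and 0.52. The histone demethylase Kdm3a changed by 0.51, 0.55 and 0.48, the haem oxygenase Hmox1 by 0.47, 0.61 and 0.58, and the repressor Bhlhe40 by 0.48, 0.58 and 0.44.

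Slc2a1, Pdk1 and Vegfa, also well known for their response to low oxygen, had values near or below 0. Slc2a1, the glucose transporter GLUT1, changed by 0.10, 0.06 and 0.11 (SE 0.22 each), and Pdk1, which restrains pyruvate oxidation, by -0.05, 0.03 and -0.02 (SE 0.17 each). Vegfa, the angiogenic ligand, had -0.15, -0.40 and -0.38 (SE 0.36 to 0.37). Other targets had values above 0. Bnip3, a mitophagy receptor, had 0.26, 0.53 and 0.49 (SE 0.37 each). Car12, Ddit4 and Rora ranged from 0.30 to 0.61. None of these target genes passed without the block (edgeR).

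**Figure D4:**
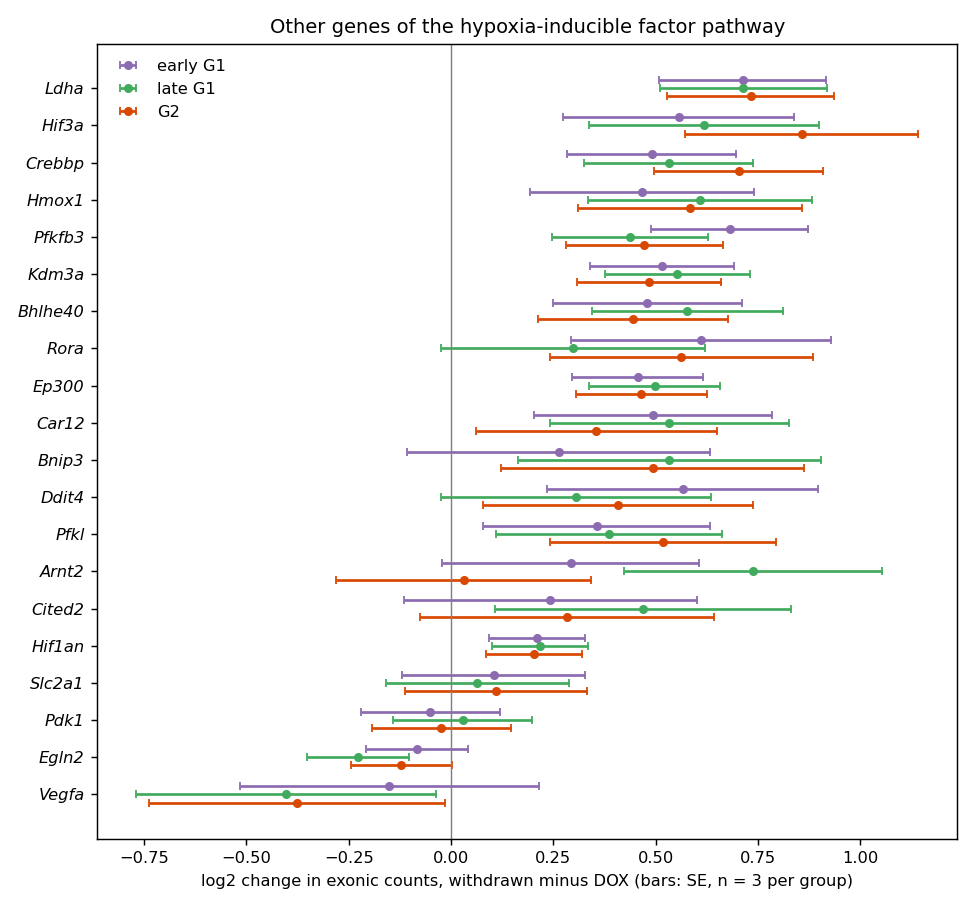
Log2 change in exonic counts, withdrawn minus DOX, of 20 other HIF pathway genes in early G1, late G1 and G2; points are edgeR estimates and bars 1 SE (n = 3 per group). Ldha is at the top with 0.71 to 0.73, Pdk1 straddles 0, and Vegfa lies lowest. Besides the fixed genes, 12 were kept for the largest changes among 19 past the threshold in a withdrawal contrast, with or without the replicate block. The plot therefore favours large changes. The median of all 58 tested list genes was 0.22, 0.24 and 0.21.

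Across the 18 libraries the genes whose exonic log2 CPM ran closest to that of Epas1 were Rbms2 (Pearson r = 0.97), Ddx6 (0.95), Anxa11 (0.95), Mbtd1 (0.95) and Myc (0.95), of 10675 genes with a mean log2 CPM of at least 2. Rbms2 encodes an RNA-binding protein, Ddx6 an RNA helicase, Anxa11 an annexin and Myc a transcription factor. These libraries share groups and replicate numbers, and the withdrawal difference enters each r. Among the other HIF genes r was 0.54 for Egln3, 0.49 for Arnt, -0.04 for Egln1, -0.51 for Hif1a and -0.56 for Vhl.

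Esrrb binding near the 6 genes was read from the authors' list of 14559 Esrrb peaks, whose heights come from libraries separate from the RNA-seq. Peaks with a centre within 50 kb of a gene start numbered 14. Epas1 had 3, at 40.2 kb and 8.2 kb upstream of its start and at 48.8 kb downstream, the last inside the gene. Hif1a had 1 at 16.8 kb upstream, Arnt 1 at 7.6 kb upstream and Egln1 1 at 19.9 kb upstream. Egln3 had 5, at 12.5, 23.4, 25.1, 28.1 and 39.2 kb downstream of its start, and Vhl had 3, at 22.9 kb upstream and at 14.1 and 27.7 kb downstream. Of all 14092 genes tested over exons, 60.9% had at least 1 such peak, 22.7% at least 3 and 8.37% at least 5. The start nearest to each Epas1, Hif1a, Arnt, Egln1 and Egln3 peak was that of the gene itself, whereas the Vhl peaks lay nearest to Fancd2os (upstream) and Irak2 (both downstream).

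The authors sort peaks by binding in mitosis into Bookmarked and Lost classes. The Arnt peak was the only Bookmarked one of the 14, and 13 were Lost, as were 45.5% (class 4) and 40.9% (class 5) of all peaks. In mm9 the Epas1 peaks span chr17:87112351-87113700, chr17:87144151-87145950 and chr17:87201751-87202350.

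Heights are log2 reads per kb of peak per M reads, as the authors normalised them, in libraries of 10.7 to 67.5 M reads. At the Epas1 peak 8.2 kb upstream the height was -1.74 and -0.95 in withdrawn and -2.16, -0.50, -0.81 and -0.84 in DOX mitosis, and -2.77 and -1.28 in withdrawn and 0.64, 1.40, 1.15 and 2.43 in DOX interphase. All 4 DOX interphase libraries thus lay above all 8 others. At the peak 40.2 kb upstream it was -1.48 and -0.83 in withdrawn and -0.88, -0.70, -0.64 and -0.76 in DOX mitosis, and -1.99 and -0.45 in withdrawn and 1.15, 1.99, 1.64 and 2.92 in DOX interphase. At the peak inside Epas1 it was -3.63 and -0.92 in withdrawn and -2.71, -0.95, -1.09 and -1.76 in DOX mitosis, and -3.99 and -3.60 in withdrawn and -0.28, 0.29, 0.83 and 2.02 in DOX interphase. The last peak rests on few reads, at most 39 in any library, and 0 in mitosis withdrawn replicate 1.

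**Figure D5:**
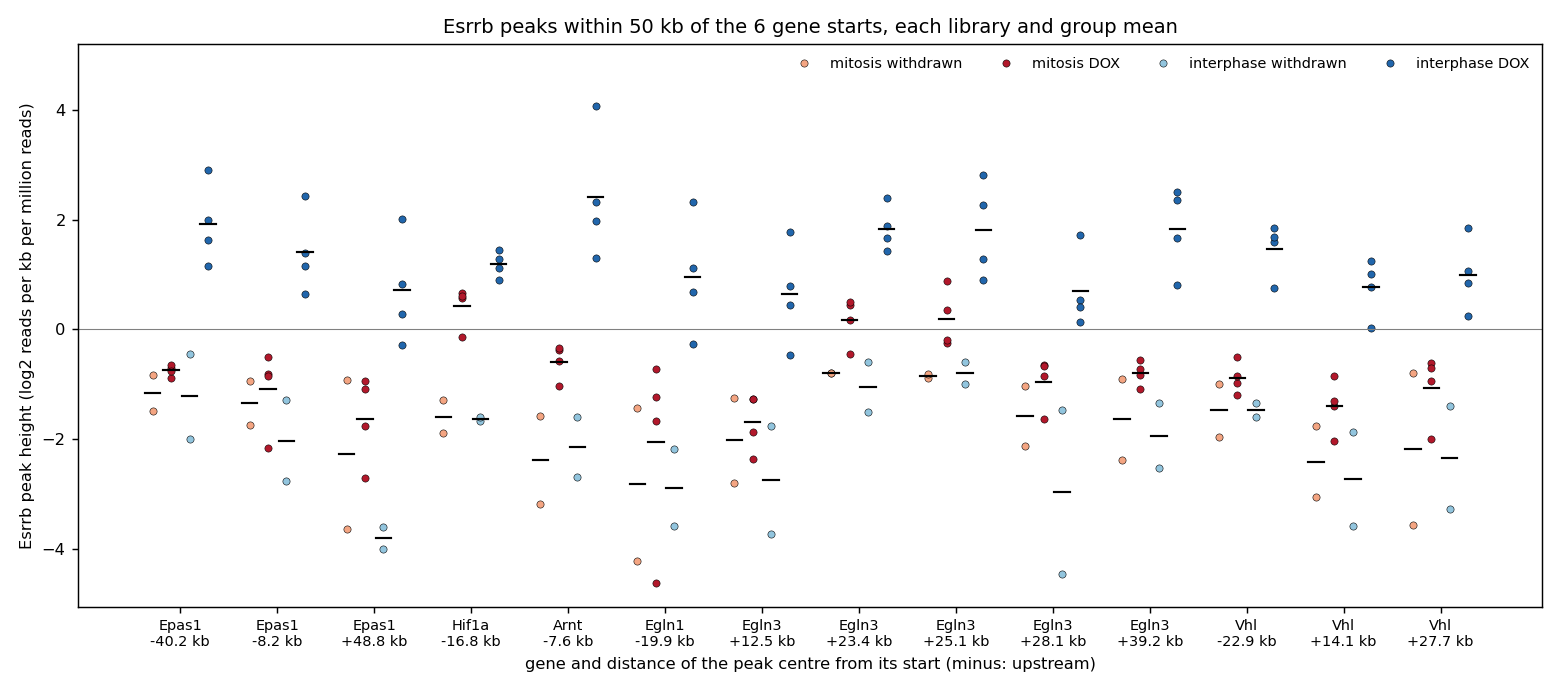
Esrrb ChIP-seq height (log2 reads per kb per M reads) at the 14 peaks, labelled by gene and distance from its start; points are libraries in mitosis withdrawn, mitosis DOX, interphase withdrawn and interphase DOX, and dashes group means. DOX interphase libraries are the highest group at every peak, and the Hif1a peak keeps the highest DOX mitosis mean, 0.42.

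In mitosis, with DOX, 13 of the 14 peaks were lower than in interphase (limma adjusted p), beside 91.4% of all peaks. The 3 Epas1 peaks, all Lost, differed by -2.67 ± 0.50, -2.49 ± 0.59 and -2.34 ± 0.81 log2, from far upstream to inside the gene. The Lost class was itself given by binding in mitosis, so these differences largely repeat that sorting and are a description. The median was -2.34 for the 14 and -2.26 for all peaks. Hif1a was the exception, at 0.42 ± 0.38 in mitosis and 1.19 ± 0.23 in interphase (SD, n = 4 each), a difference of -0.77 ± 0.46 (limma adjusted p = 0.111). The Arnt peak, though Bookmarked in the authors' table, was lower in mitosis by 3.00 ± 0.57 on the log2 scale.

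After 48 h of withdrawal all 14 peaks were lower in interphase (limma adjusted p), as were 99.6% of all peaks. A list of Esrrb peaks favours regions that are high in DOX libraries, so it favours this direction. Nothing is read from that count, and the changes are a description. The Epas1 peaks changed by -3.15 ± 0.62, -3.43 ± 0.73 and -4.51 ± 0.99 log2. The Egln3 peaks changed by -2.62 to -3.77, the Vhl peaks by -2.94 to -3.49, Hif1a by -2.83 ± 0.56, Arnt by -4.57 ± 0.70 and Egln1 by -3.84 ± 1.10. In mitosis 1 of the 14 was lower, beside 22.4% of all peaks: the Hif1a peak, at -1.89 and -1.28 in withdrawn libraries, against 0.67, 0.57, -0.14 and 0.61 in DOX (-2.01 ± 0.56 log2; limma adjusted p = 0.0188). That call was lost without mitosis withdrawn replicate 1 (-1.71 log2) and without mitosis DOX replicate 2 (-1.96) or 4 (-1.95). The Epas1 peaks changed in mitosis by -0.41 ± 0.62, -0.27 ± 0.73 and -0.65 ± 0.99 log2 and did not pass. The median change of the 14 peaks was -3.41 in interphase and -0.80 in mitosis, against -3.74 and -1.33 for all peaks. With heights centred on each library's median, which removes a shift shared by all peaks, none of the 14 passed in any of these 3 comparisons. The Epas1 peaks then differed by -0.55, -0.37 and -0.23 log2 between mitosis and interphase, and changed by 0.51, 0.22 and -0.86 on withdrawal in interphase, so that the sign of the upstream pair turned. The withdrawal times of RNA-seq (24 h) and ChIP-seq (48 h) differ.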

How the data were processed

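Deposited tables were used. Raw counts per RefSeq transcript over exons (20300 genes) and introns (17916, with 2377 blank lines left out) are unnormalised, per the file headers. Build mm9, Bowtie, DESeq2 and CASAVA 1.8 are listed, without their use, per the submitters' processing notes; counting tool, strand setting and peak caller were not given in the sources used here, and overlapping or antisense genes are uncertain. Esrrb peak heights are log2 reads per kb of peak per M (mega) reads, as the authors normalised them, a unit read from the values: reads recovered from the heights were whole within 0.05 read for 100% of values. The columns headed noco were read as mitosis. The labels do not use that word, so any treatment of the mitotic cells that it stands for is not known here. The deposited log2 heights were no counts, so limma was used.

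The 18 RNA-seq libraries entered 1 edgeR 4.0.16 fit of 6 group means in R 4.3.3, with 12 residual degrees of freedom. It used filterByExpr, TMM and quasi-likelihood, with Benjamini-Hochberg at 0.05. The fit was tried on simulated counts drawn without an effect of replicate number, so that trial does not cover such an effect. Heights entered limma 3.58.1 with trend (12 libraries, 4 groups). DESeq2 1.42.0 was an alternative. The SE is the absolute log2 change divided by the square root of F. Gene starts are 1-based. The 3 pathway lists and the 4 marker lists were chosen, like the 6 genes, with earlier results of these data known; the comparison of withdrawal between mitosis and interphase was added after the data were seen. Named besides the 6 were 9 chosen pathway genes and the 5 genes most like Epas1. Also named were the 12 with the largest changes among 19 pathway genes past the threshold in any withdrawal contrast with or without the replicate block. Cul2 and Ak4, past the threshold but outside these 12, were named because they were called. Replicate number was left out of the main design. Of 45 pairs of libraries with the same number in different groups, 42 had correlated deviations above 0.1 over exons, and 42 over introns. Of 90 such pairs with different numbers, 10 and 5 did. Between withdrawn and DOX libraries of a phase, only replicate 2 in G2 over exons (0.0958) and in early G1 over introns (0.085) lay below. Blocked calls of withdrawn minus DOX are therefore given beside the others. Between phases blocked values are given over exons only, and none for the difference in withdrawal response. Levels of different genes are not compared, since exon lengths were not used.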

Additional observations from a re-analysis of the deposited data

Results flagged for a closer look

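Withdrawal lowered 8 of the 14 peaks less in mitosis than in interphase (limma adjusted p under 0.05 for the difference of the responses, a comparison added after the data were seen), beside 37.5% of all peaks. The difference, mitosis minus interphase, was 2.74, 3.17 and 3.87 log2 at the Epas1 peaks 40.2 and 8.2 kb upstream and inside the gene (limma adjusted p = 0.0281, 0.0293 and 0.0384). It was 2.77 at the Arnt peak, 1.92, 3.04 and 2.93 at the Egln3 peaks 23.4, 28.1 and 39.2 kb downstream, and 2.35 at the Vhl peak 22.9 kb upstream (limma adjusted p = 0.0378, 0.0492, 0.0490, 0.0288 and 0.0436). DOX heights in mitosis were already below those in interphase at these peaks, and the peak list favours a fall in interphase. These calls are therefore a description. The median difference was 2.75 for the 14 peaks and 2.46 for all peaks.

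At the Hif1a peak, mitosis DOX replicate 3 stood apart from the other 3 libraries of its group, at a height of -0.14 against 0.57 to 0.67, with a gap of 0.878 of the group's range, past Dixon's critical value. It was the only one of 28 such groups, and chance gives about 1 in 20.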

How the results depend on the processing

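Over exons and introns, Epas1 kept its sign in each phase under every alternative run, with log2 changes over exons of 1.04 to 1.41 in early G1, 1.31 to 1.74 in late G1 and 1.02 to 1.30 in G2 when single libraries were left out. With the replicate block the pathway lists had 7, 8 and 12 calls over exons (7, 8 and 11 higher) and 1, 2 and 5 over introns in early G1, late G1 and G2, against 0; all 18 libraries in each table correlated best with one of their own number, a hint from the data and not from the design. DESeq2 gave 2 in late G1 and 2 in G2. Leaving out single libraries gave 0 to 1 in late G1. Leaving out single libraries turned the sign of uncalled changes over exons: Arnt2 in G2 (-0.42 to 0.25), Cited2 in early (-0.16 to 0.52) and late G1 (-0.10 to 0.69), Egln2 (-0.16 to 0.0062), Vegfa (-0.36 to 0.18) and Bnip3 (-0.026 to 0.65) in early G1, Slc2a1 in early G1, late G1 and G2 (-0.037 to 0.18, -0.070 to 0.22 and -0.13 to 0.33), Pdk1 in the same (-0.16 to 0.064, -0.077 to 0.14 and -0.14 to 0.16), Car12 in G2 (-0.029 to 0.69) and Ddit4 in late G1 (-0.0013 to 0.53). Without a filter Pdk1 in G2 was at 0.0038.

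For peaks, a window of 20 kb held 5 lower in mitosis and 6 lower on withdrawal in interphase, and 100 kb held 2 lower on withdrawal in mitosis. That last count was 2 with the replicate block, where the Epas1 peak 8.2 kb upstream was at 0.052. Number 2 in this block joins wild-type DOX libraries with EKOiE withdrawn ones. The count was 0 with limma without trend, and leaving out single libraries gave 0 to 3. It also turned the sign on withdrawal in mitosis at the Epas1 peaks 8.2 kb upstream (-0.66 to 0.13) and inside the gene (-2.003 to 0.71), at Egln1 (-2.16 to 0.63), at Egln3 12.5 kb (-1.11 to 0.45) and at Vhl 27.7 kb (-2.50 to 0.26). Heights centred on each library's median gave 0 calls in all 3 comparisons; centring removes a shift shared by all peaks. Their values were then above 0 between mitosis and interphase for Hif1a (1.35), Egln3 at 25.1, 23.4 and 28.1 kb (0.49, 0.45 and 0.47) and Vhl at 27.7 kb (0.051). On withdrawal in interphase they were 0.51 and 0.22 at the upstream Epas1 peaks, 0.82 at Hif1a, 1.03, 0.76 and 0.27 at Egln3 (25.1, 23.4 and 12.5 kb) and 0.71, 0.16 and 0.31 at Vhl. In mitosis they were 0.98, 1.13 and 0.75 at Epas1, 0.63 at Egln1, 0.34, 0.42, 0.55, 0.76 and 1.06 at Egln3, and 0.80, 0.37 and 0.27 at Vhl. Of the 5 genes most like Epas1, 2 were among the top 5 by Spearman correlation and 1 with the replicate block. The cause of these changes was not tested.

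With 3 libraries per group, SEs of 0.14 to 0.28 log2 for withdrawn minus DOX of the 6 genes over exons limit what can be seen, and peaks of few reads limit mitosis after withdrawal.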
